A study of Mus musculus with 12 samples.

Results

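Acetylation of lysine 27 on histone H3 (H3K27ac) at gene starts was compared with mRNA level in mouse embryonic stem cells (mESCs). The members were the protein-coding genes of the mESC RNA-seq table, and 21892 of its 21923 protein-coding genes were used. Of the others, 13 are encoded by the mitochondrial genome and 18 had no coordinates in the annotation. Each gene took the TPM of its highest transcript, a level scaled for the length of the transcript and the size of the library. A first class held the 5753 genes at 0, and the genes above 0 were split into quartiles at 0.525, 5.63 and 21.7 TPM. For each gene, the list of 19417 H3K27ac peaks was searched for a peak with any base within 1 kb of the gene start. Neither the classes nor the gene starts were chosen with the peaks.

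The study profiled the Paf1 complex and RNA polymerase II (RNAPII) by ChIP-seq in mESCs of the ES-E14 line (E14TG2a) and in NIH3T3 cells, an established line of mouse embryonic fibroblasts. Peak lists of mESCs were used for H3K27ac, for Ctr9, a core subunit of the Paf1 complex, for NELFA, a subunit of the pausing factor NELF, and for RNAPII phosphorylated at serine 5 (Ser5p) or serine 2 (Ser2p), together with the H3K27ac list of NIH3T3 cells and both RNA-seq tables. Both lines were grown in GMEM with FBS and LIF, and the sample labels name no treatment or knockdown. Ctr9 was pulled down through GFP in a sorted pool of knock-in cells rather than single clones, and NELFA through GFP in a tagged mESC line. The labels of the H3K27ac library name ES-E14 cells and an anti-H3K27ac antibody, and do not say whether the cells carried a tag. Every list and table came from 1 library, so no value below has a replicate and no difference was tested. Intervals are 95% intervals over genes and cover counting error only, since genes of 1 library are not replicates. How deeply the ChIP-seq libraries were sequenced cannot be read from peak lists. The estimated RNA-seq counts summed to 26400407 in mESCs and 28849497 in NIH3T3 cells.

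Acetylation of lysine 27 is placed on nucleosomes by the acetyltransferases p300 and CBP and removed by histone deacetylases. It is known as a mark of active promoters and active enhancers, and the same lysine cannot be acetylated while it carries the repressive methylation. At an active promoter the acetylated nucleosomes flank a short nucleosome-depleted stretch where RNAPII starts. Many promoters of housekeeping genes lie in CpG islands, which are stretches rich in the dinucleotide CpG.

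The labelled cell type was checked on marker genes. All 4 core pluripotency genes (Pou5f1, Sox2, Nanog and Sall4) and 18 of 20 naive pluripotency genes were in the highest quartile. The exceptions were Prdm14 at 17.1 TPM and Dppa3 at 1.23 TPM. Of 18 fibroblast markers, 5 were at 0, 6 in the lowest quartile and 2 in the highest, which were Vim at 162 TPM and Fn1 at 75.7 TPM. Among 15 trophoblast and extraembryonic endoderm markers, 3 were in the highest quartile (Sparc at 187 TPM, Lama1 at 41.4 TPM and Krt8 at 39.2 TPM), and none of the 15 had an H3K27ac peak at its start.

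The promoters of 5 genes show the range that the following results span, because their sequence and their H3K27ac differ although all belong to the highest quartile. Calm3, a calmodulin gene, and Coq7, an enzyme of ubiquinone synthesis, carried the peaks of highest fold enrichment in that class. Eef2, the elongation factor that moves the ribosome along the mRNA, Pou5f1, the pluripotency factor Oct4, and Tdgf1, a co-receptor for Nodal, had no peak within 1 kb. The lines give 250 bps before to 50 bps after the start in RefSeq, build GRCm38.p6, read 5′ to 3′ on the strand of the gene, with each CpG in capitals.
Calm3, chr7:16923983-16924282, minus strand: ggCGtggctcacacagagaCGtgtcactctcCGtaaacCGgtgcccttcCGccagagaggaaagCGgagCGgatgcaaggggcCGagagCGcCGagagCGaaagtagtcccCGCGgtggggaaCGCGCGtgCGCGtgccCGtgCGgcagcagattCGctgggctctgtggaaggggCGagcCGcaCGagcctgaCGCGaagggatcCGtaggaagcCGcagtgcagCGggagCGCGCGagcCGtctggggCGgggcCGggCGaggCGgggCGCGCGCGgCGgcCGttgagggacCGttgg
Coq7, chr7:118533307-118533606, minus strand: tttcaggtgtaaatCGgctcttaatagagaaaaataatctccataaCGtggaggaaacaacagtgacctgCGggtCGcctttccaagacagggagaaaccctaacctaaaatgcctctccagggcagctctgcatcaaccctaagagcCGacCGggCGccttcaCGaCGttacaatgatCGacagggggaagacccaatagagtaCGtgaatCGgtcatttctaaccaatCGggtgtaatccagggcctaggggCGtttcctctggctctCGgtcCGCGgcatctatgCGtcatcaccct
Eef2, chr10:81176381-81176680, plus strand: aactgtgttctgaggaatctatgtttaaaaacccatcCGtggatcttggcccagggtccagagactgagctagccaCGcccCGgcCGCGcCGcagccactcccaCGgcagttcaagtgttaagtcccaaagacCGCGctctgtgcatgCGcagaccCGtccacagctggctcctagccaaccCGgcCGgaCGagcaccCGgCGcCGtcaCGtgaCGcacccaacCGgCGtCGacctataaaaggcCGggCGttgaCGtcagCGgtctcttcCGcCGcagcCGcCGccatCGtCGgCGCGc
Pou5f1, chr17:35505782-35506081, plus strand: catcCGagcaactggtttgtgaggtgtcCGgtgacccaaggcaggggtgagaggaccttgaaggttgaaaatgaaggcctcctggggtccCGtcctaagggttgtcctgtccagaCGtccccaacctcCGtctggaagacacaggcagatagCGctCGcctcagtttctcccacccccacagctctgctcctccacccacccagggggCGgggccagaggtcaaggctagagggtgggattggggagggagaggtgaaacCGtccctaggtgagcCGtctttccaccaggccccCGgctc
Tdgf1, chr9:110946109-110946408, minus strand: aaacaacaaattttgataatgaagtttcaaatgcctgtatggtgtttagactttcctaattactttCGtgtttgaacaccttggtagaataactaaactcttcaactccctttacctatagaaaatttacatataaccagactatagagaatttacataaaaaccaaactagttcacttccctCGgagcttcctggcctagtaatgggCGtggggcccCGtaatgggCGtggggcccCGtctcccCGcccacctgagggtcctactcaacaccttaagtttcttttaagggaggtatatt
Calm3 held 44 CpGs and Eef2 34, against 18 in Coq7, 11 in Pou5f1 and 7 in Tdgf1. A CpG-dense promoter was found both with the strongest peak of the class and with none.

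H3K27ac at the gene start was more frequent with each class of mRNA level. Over all genes, 7054 of 21892 (32.2%) had a peak within 1 kb of the start. At 0 TPM, 72 of 5753 genes had one (1.25%, interval 0.980 to 1.57), with 149 genes (2.59%) for a window of 5 kb and 18 genes (0.355%) among those with no other start within 2 kb. In the lowest quartile 149 of 4035 genes had one (3.69%, 3.13 to 4.32). In the second quartile the count was 1056 of 4034 (26.2%, 24.8 to 27.6). The third quartile had 2516 of 4035 (62.4%, 60.8 to 63.9), and the highest quartile 3261 of 4035 (80.8%, 79.6 to 82.0). The shares of the highest quartile and of the genes at 0 were 79.6 percentage points apart, and no interval of a class overlapped that of another. In bulk samples such as these, a mark in fewer cells and less mark per cell cannot be told apart. Of the 7054 genes with a peak, 5777 (81.9%) were in the 2 highest quartiles.

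**Figure D1:**
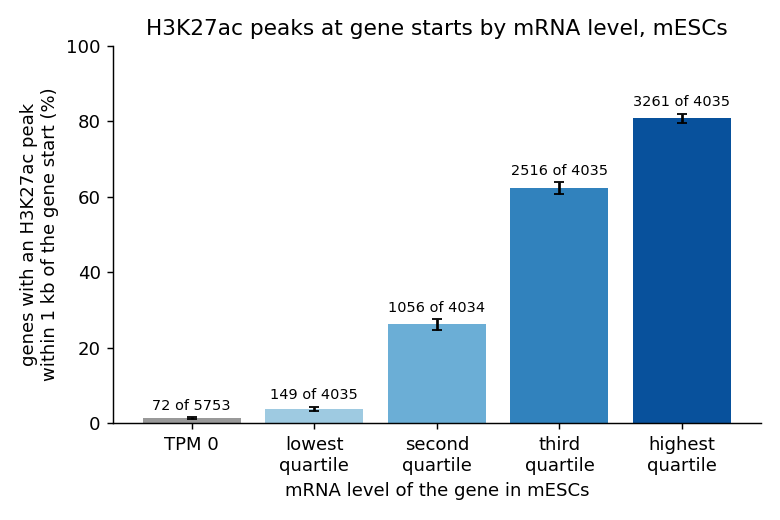
Share of protein-coding genes with an H3K27ac peak within 1 kb of the gene start (vertical axis, percent) in the 5 classes of mRNA level in mESCs, with exact 95% intervals over genes as error bars and the counts above the bars. The share is 1.25% at 0 TPM and 80.8% in the highest quartile.

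The share was followed in 20 bins of about equal size among the expressed genes. It was 1.12% (0.511 to 2.11) in the lowest bin, at a median of 0.0212 TPM, and 9.54% (7.60 to 11.8) in the bin at a median of 0.696 TPM. From there it was 24.8% at a median of 2.15 TPM, 42.9% at 4.80 TPM and 64.1% at 11.4 TPM. In the 2 highest bins it was 85.4% (82.7 to 87.7) at a median of 77.6 TPM and 83.6% (80.9 to 86.1) at a median of 200 TPM, and these intervals overlapped. The highest bin began at 112 TPM, and 132 of its 806 genes had no peak at their start.

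The other mESC lists were counted in the same bins. Over all genes, 13.3% had a Ctr9 peak at the start, 8.08% a NELFA peak, 8.25% a Ser5p peak and 1.73% a Ser2p peak. Between the 2 highest bins, Ctr9 was at 33.2% and 54.7%, Ser5p at 29.5% and 48.0%, and NELFA at 29.5% and 40.3%. Ser2p, the form of elongating RNAPII, was at 4.71% in the highest bin. These lists differ in antibody and unknown depth, so neither their heights nor their courses are comparable between lists, and H3K27ac has little room to grow where most genes already have a peak.

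**Figure D2:**
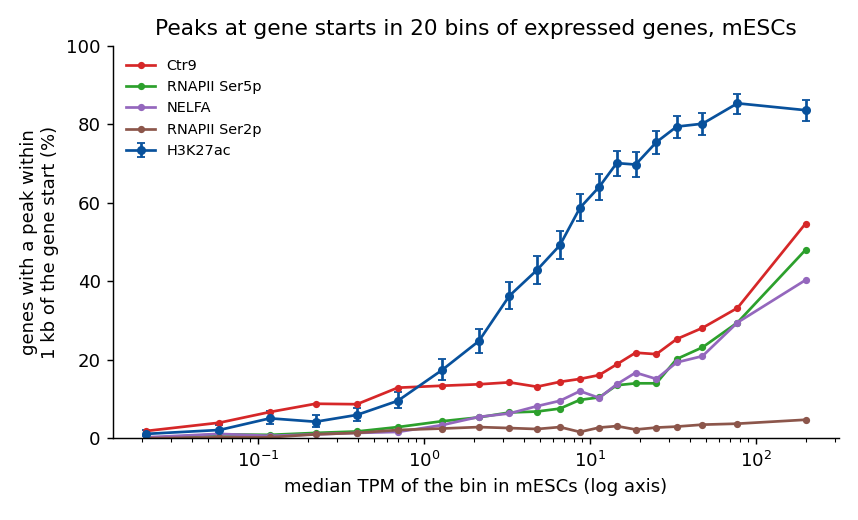
Share of genes with a peak within 1 kb of the start (vertical axis, percent) against the median TPM of 20 bins of expressed genes (horizontal log axis), for 5 peak lists of mESCs, with exact 95% intervals for H3K27ac. H3K27ac is at 85.4% and 83.6% in the 2 highest bins, and Ctr9 at 33.2% and 54.7%.

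The strength of peaks was compared between the classes. Fold enrichment is the fragment pileup at the summit over the local background, and each gene took its strongest peak. The median was 5.07 at 0 TPM (interval 4.44 to 6.17), 5.25 in the lowest quartile (4.74 to 5.57) and 4.87 in the second quartile (4.72 to 5.06). It was 5.31 in the third quartile (5.18 to 5.44) and 5.94 in the highest quartile (5.84 to 6.06). The highest quartile was thus 1.17 times the genes at 0, with overlapping intervals, and it lay above the intervals of the 3 quartiles below it. Most genes at 0 with a peak shared it with an expressed neighbour (53 of 72, described further on). Among genes with no other start within 2 kb, the medians were 3.85 at 0 TPM (18 genes) and 5.83 in the highest quartile, a ratio of 1.51. Peaks of a fold of at least 10 made up 8.33% of those at genes at 0 and 7.76% of those in the highest quartile.

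Median width was 450.5 bps at 0 TPM (401 to 513), 479 bps in the lowest quartile (423 to 538), 431.5 bps in the second (416 to 451), 488 bps in the third (475 to 503) and 607 bps in the highest (594 to 620). With no other start within 2 kb it was 284.5 bps at 0 TPM and 587.5 bps in the highest quartile. Peaks of at least 1000 bps were found at 13.3% of the genes of the highest quartile with a peak, and at 7.99% of those of the third quartile. More than 1 peak within 1 kb was present at 18.1% of the genes at 0 with a peak and at 33.4% of those in the highest quartile. Across the 6982 expressed genes with a peak, Spearman's rho with TPM was 0.15 for fold and 0.25 for width, and 0.54 between fold and width. Genes are not independent replicates, and neighbours can share a peak.

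**Figure D3:**
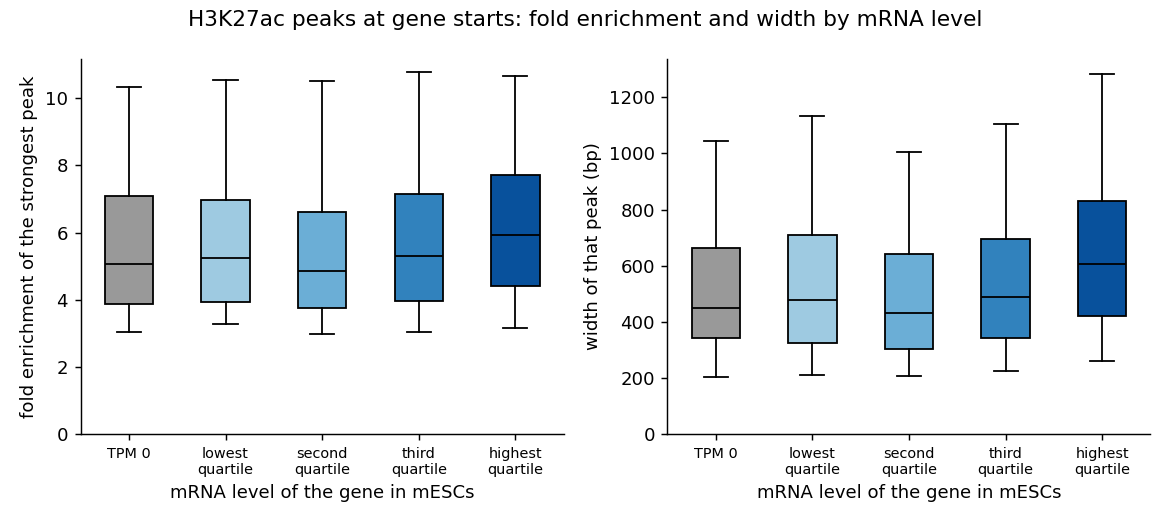
Fold enrichment (left) and width in bp (right) of the strongest H3K27ac peak within 1 kb of the gene start, by class of mRNA level in mESCs. Boxes span the quartiles with the median as a line, and whiskers reach from the 5th to the 95th percentile of genes with a peak. Median fold is 5.07 at 0 TPM and 5.94 in the highest quartile, and median width 450.5 and 607 bp.

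The summit lay downstream of the gene start in most expressed genes. In the highest quartile the median summit was 196 bps downstream, and 79.9% of genes had it downstream. The median was 173 bps in the third quartile (75.7% downstream) and 133 bps in the second (64.2%). In the lowest quartile it was 2 bps, with 50.3% downstream. Summits were sparse at the start itself: of the genes with a peak in the highest quartile, 1.38% had it in the 100 bps before the start, against 27.6% from 100 to 200 bps downstream and 5.34% from 200 to 300 bps upstream. In the second quartile the upstream window from 300 to 400 bps held 8.24%.

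**Figure D4:**
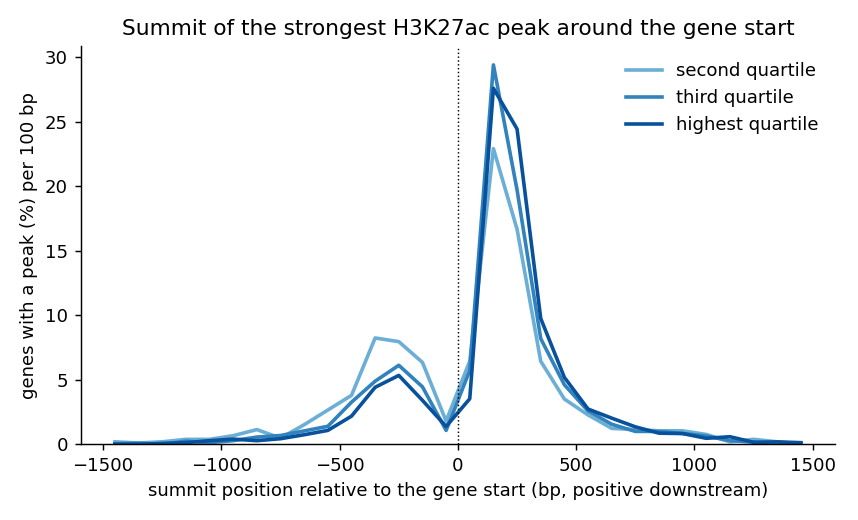
Position of the summit of the strongest H3K27ac peak relative to the gene start (horizontal axis, bp, positive downstream), as the percent of genes with a peak per 100 bp, for the 3 highest classes of mRNA level in mESCs. Each class shows a high downstream and a low upstream maximum around a minimum at the start. In the highest quartile 27.6% of summits are 100 to 200 bp downstream.

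The 10 genes of highest fold in the highest quartile are given with their levels. Calm3 was at 98.9 TPM with a fold of 16.0, and its summit lay 352 bps upstream of the start. Coq7 was at 36.3 TPM with a fold of 15.5, Klhl24, which encodes a substrate adaptor of a ubiquitin ligase, at 27.4 TPM with 15.1, and Upf3a, a factor of nonsense-mediated decay, at 24.6 TPM with 15.02. Nup85, a nucleoporin, had a fold of 14.9 and Htatsf1 a fold of 14.7. Idi1, an enzyme of isoprenoid synthesis, had 14.7, Lsg1, a GTPase of ribosome maturation, 14.5, Mrps28, a mitochondrial ribosomal protein, 14.4, and Rbm3, a cold-inducible RNA-binding protein, 14.3. Their levels ran from 24.6 TPM (Upf3a) to 363 TPM (Rbm3), so several lay near the lower limit of the class. All 10 also had an H3K27ac peak at the start in NIH3T3 cells, with folds from 19.6 (Mrps28) to 45.3 (Klhl24). Klhl24, Upf3a, Mrps28 and Rbm3 had a Ser5p peak in mESCs. Over all genes of the highest quartile with H3K27ac, these shares were 96.3% for the NIH3T3 list and 31.4% for Ser5p.

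The widest peaks were at other genes. Brd2, a bromodomain protein that itself binds acetylated histones, had a peak of 3052 bps with a fold of 3.77. Bend3 had one of 2235 bps with a fold of 4.38. Rps28, a ribosomal protein gene at 2947 TPM, and Ndufa7, a subunit of respiratory complex I at 217 TPM, start back to back and shared 1 peak of 2126 bps. Utp4, a factor of ribosome assembly, had 2069 bps in a peak that also lay at the start of Chtf8. The widest peaks had folds of 3.77 to 5.81, below the median of their class.

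Gene groups of high mRNA level were compared with the 80.8% of the whole highest quartile, counting their members in that class. Of 81 ribosomal protein genes in the class, 73 had a peak at their start, with a median fold of 6.95 and a median width of 904 bps. All 17 chaperone genes had one, among them Hsp90ab1 (3921 TPM, fold 8.18) and Hspd1 (700 TPM, fold 6.25). Of 20 translation factor genes 17 had one, of 14 genes of the 20S proteasome 12, of 16 cytoskeleton genes 12, and of 13 glycolysis genes 10. Several of these counts lie near the share of the class, and no difference was tested. The gene of highest level, Eef1a1 at 10124 TPM, had a peak with a fold of only 2.81 and a width of 317 bps. Actb, at 1157 TPM, had a fold of 8.57. Among glycolytic genes Gapdh had a fold of 4.72 and Pkm a fold of 4.197.

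The ribosomal protein genes without a peak included Rps24, at 3972 TPM, whose nearest peak was 3660 bps away. For Rps2, Rps25, Rpl17, Rpl18 and Rps14, a peak lay within 1 kb of the start of the highest transcript, although not of the annotated gene start. Rps10, at 1543 TPM, was 1407 bps from its nearest peak. Rpl39l (27.8 TPM), Rpl10l (15.5 TPM) and Rpl3l (0.691 TPM) are paralogues of ribosomal protein genes. Rpl39l was at 253 TPM in NIH3T3 cells and had an H3K27ac peak at its start there.

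Groups expressed in other cell types or states are read against 32.2% over all genes, and against 1.25% at 0 TPM and 3.69% in the lowest quartile, where many of their members lie. None of 18 primed pluripotency and early lineage genes had a peak, with 6 of them in the second quartile and 3 in the third. None of 13 genes of the 2-cell stage had one. Of 1144 olfactory receptor genes, 826 of them at 0 TPM and 293 in the lowest quartile, 2 had a peak. Of 322 vomeronasal receptor genes 2 had one, and of 113 genes listed as keratin or keratin-associated 1 had one. Of 18 fibroblast markers 2 had one, Vim (fold 2.81) and Fn1 (fold 2.52), against 16 in the NIH3T3 list. Of 18 immediate early genes 4 had one, among them Ier2 (102 TPM, fold 2.07) and Jund (77.3 TPM, fold 4.25). By class, a peak was at 1 of 5 in the second quartile, 1 of 4 in the third and 2 of 4 in the highest. Of 15 germline genes 2 had one, including Sycp3, a protein of the meiotic chromosome axis, at 36.5 TPM with a fold of 3.38.

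Replication histone genes were often listed at low TPM with a peak at the start, as were zinc finger genes named Zfp in the second quartile. Of 67 replication histone genes 37 had a peak, with a median fold of 5.41. Of the 60 in the 3 lowest classes of mRNA level, 31 had one. These were 3 of 8 at 0 TPM, 5 of 19 in the lowest quartile and 23 of 33 in the second. Among all genes of these classes, 1.25%, 3.69% and 26.2% had one. Their messages end in a stem-loop without a poly(A) tail, and the copies of this family are near identical in sequence, so the TPM of single members is uncertain. How RNA was selected for the library is not given in the sources used here. Zfp genes had a peak in 220 of 397 cases. The count was 77 of 153 in the second quartile, but 1 of 30 in the lowest quartile and 0 of 9 at 0 TPM. No difference from other genes was tested.

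The pluripotency genes were highly expressed, and 2 of the 4 core and 11 of the 20 naive genes had a peak at their start, against 80.8% of the highest quartile, which held all but 2 of them, and 32.2% of all genes. Sox2 had a peak of low fold (2.33) 143 bps downstream of its start at 364 TPM, and Sall4 one of 3.02 at 75.3 TPM. Klf4 had the highest fold of the group, 5.84, at 89.7 TPM. Gdf3 had 4.84, Tbx3 4.62, Klf5 4.32, Zfp42 (Rex1) 3.77, Fbxo15 3.77, Dppa2 3.69, Dppa4 3.35, Lin28a 3.21, Nr0b1 3.16 and Tfcp2l1 2.89. All but Klf4 were below 4.87, the lowest median of any class, and Klf4 was below the median of the highest quartile. Klf4, Klf5 and Tbx3, which were also expressed in NIH3T3 cells at 26.3, 14.2 and 10.1 TPM, were among the 4 of this group with the highest folds.

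The other pluripotency genes had no peak within 1 kb. Dppa5a, at 3190.4 TPM, had its nearest peak 5069 bps away. For Pou5f1, at 1402 TPM, that distance was 1245 bps, for Tdgf1, at 784 TPM, 1684 bps, and for Tcl1, at 146 TPM, 1492 bps. Nanog, at 281 TPM, had its nearest peak 3349 bps away, Klf2, at 251 TPM, 2177 bps, and Fgf4, at 146 TPM, 9131 bps. Utf1, at 193 TPM, was 92130.0 bps from any peak. For Esrrb, at 211 TPM, the nearest peak was 109049 bps from the annotated start, and 8 peaks lay in the gene body. The highest transcripts of Esrrb and Fgf4 started 60527 and 14019 bps from the annotated starts, and neither start had a peak within 1 kb. Prdm14 and Dppa3 had their nearest peaks 23109 and 16437 bps away. Of these genes, Dppa5a, Pou5f1, Tdgf1, Nanog, Klf2 and Utf1 had both a Ser5p and a Ctr9 peak at the start. All 4 core genes had both, against 2 of 4 with H3K27ac. In the whole highest quartile, which held all genes just named with both peaks, Ser5p was at 26.96% of the starts and Ctr9 at 32.54%. H3K27ac was at 80.8% of the same starts. The 4 core genes were picked as markers, and no difference was tested.

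The genes of the highest quartile without H3K27ac at the start numbered 774 (19.2%, 18.0 to 20.4). Their median level was 41.8 TPM, against 50.0 TPM for those with a peak. In 199 of the 774 a peak lay within 5 kb of the start, and in 302 a peak lay in the gene body. The nearest peak was more than 10 kb away for 472, and its median distance was 17120 bps. A peak of any of the 4 other mESC lists was at the start of 165 (21.3%), against 52.5% of the genes with H3K27ac. Ser5p was at 65 of the 774 starts (8.40%) and Ctr9 at 142 (18.3%), against 31.4% and 35.9% of the genes with H3K27ac. The H3K27ac list of NIH3T3 cells marked 44.6% of all genes and 86.9% of the genes of the highest quartile. It held 367 of these 774 (47.4%, 43.8 to 51.0) and 96.3% of the genes with an mESC peak.

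The 774 genes were divided by what lay near them. In 150, a peak lay within 1 kb of the start of the highest transcript, which differs from the gene start. Of the others, 113 had a peak within 5 kb of the gene start. A further 28 carried names of predicted genes or pseudogenes (Gm or -ps), a kind that often shares its sequence with a parent gene, so their TPM is uncertain. Another 61 were under 0.5 TPM in NIH3T3 cells, and none of these had a NIH3T3 H3K27ac peak. With those set aside, the remaining 422 (54.5%) had a median nearest distance of 31588 bps, and 270 of them (64.0%) had an H3K27ac peak at the start in NIH3T3 cells, while 20 had a Ser5p peak in mESCs.

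Among the 15 genes of highest TPM without a peak, Eef2, at 1979 TPM in mESCs and 2475 TPM in NIH3T3 cells, had none in any of the 6 lists used, and its nearest mESC H3K27ac peak was 8878 bps away. Actg1, the cytoplasmic gamma actin, at 599 TPM, was 88555 bps from a peak and also had none in the other lists. Trim28, a co-repressor that works with zinc finger proteins, at 665 TPM, had 5 peaks in its gene body, the nearest 11193 bps from the annotated start. Set, a histone chaperone, at 667 TPM, had 2 peaks in the gene body. For Fth1 (ferritin heavy chain, 764 TPM), Ldha (lactate dehydrogenase, 567 TPM) and Gsta4 (a glutathione transferase, 551 TPM), the highest transcript started 2048, 4364 and 9173 bps from the gene start, and a peak lay there. Eno1b (1527 TPM), Gm2000 (1338 TPM), Gm11808 (1255 TPM), Rps12-ps3 (1191 TPM) and Rpl27-ps3 (1060 TPM) are copies or predicted genes whose reads may come from other loci, and no Ser5p peak lay at their starts. The other 3 were the pluripotency genes Dppa5a, Pou5f1 and Tdgf1.

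Near the limits, the assignment depended on small differences. A nearest peak beyond 500 and up to 1000 bps from the start was found for 238 genes, and beyond 1000 and up to 1500 bps for 133, while 2642 genes had their start inside a peak. At the border of the highest quartile, Blvrb at 21.68 TPM lay just below and Safb2 at 21.70 TPM just above, and both had a peak.

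Genes expressed highly in mESCs and little in NIH3T3 cells had H3K27ac at 45.1% of their starts, and genes high in both at 84.0%. There were 164 genes in the highest quartile of mESCs under 0.5 TPM in NIH3T3 cells, a limit chosen after the values were seen. Of these, 74 had an mESC H3K27ac peak at the start (interval 37.4 to 53.1%). Of the 2736 genes in the highest quartile of both cell types, 2297 had one (82.5 to 85.3%). Median levels in mESCs were 45.6 and 63.0 TPM. Where present, the peak had a median fold of 3.71 in the restricted genes and 6.22 in the shared genes. Ctr9 went the other way, with a peak at 46.3% (38.5 to 54.3) of the restricted and 32.6% (30.8 to 34.4) of the shared genes. Ser5p was at 28.0% and 27.6%.

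The NIH3T3 list gave another picture for its own restricted genes. Of 143 genes in the highest quartile of NIH3T3 cells that were under 0.5 TPM in mESCs, 123 had a NIH3T3 H3K27ac peak (86.0%, 79.2 to 91.2) and 1 had an mESC peak (0.699%). Of the mESC-restricted genes, 5 of 164 had a NIH3T3 peak (3.05%). The NIH3T3 list is longer, with 34241 peaks against 19417, and had median folds of 19.2 at the shared genes and 11.7 at its restricted genes, so the lists differ in sensitivity by an unknown amount. Its part in the lower share of the mESC-restricted genes was not tested.

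**Figure D5:**
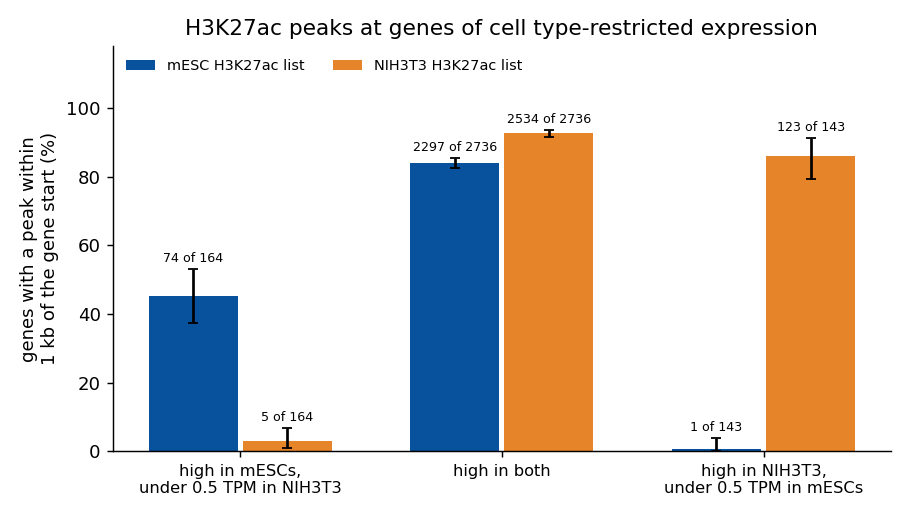
Share of genes with an H3K27ac peak within 1 kb of the start (vertical axis, percent) in the mESC list and the NIH3T3 list, for genes high in mESCs and under 0.5 TPM in NIH3T3 cells, high in both, and high in NIH3T3 cells and under 0.5 TPM in mESCs, with exact 95% intervals over genes as error bars. High means the highest quartile of expressed genes. The mESC list marks 45.1% of the mESC-restricted genes and 84.0% of the shared genes, and the NIH3T3 list 86.0% of the NIH3T3-restricted genes.

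Promoter sequence moved with these groups. The ratio of observed to expected CpG in the 300 bps around the start (250 before to 50 after) had a median of 0.431 in the mESC-restricted, 0.812 in the shared and 0.401 in the NIH3T3-restricted genes. All genes were placed in 5 groups of equal size by this ratio. Among genes in the 2 lowest groups, the mESC mark was at 29 of 72 restricted genes (40.3%, 28.9 to 52.5) and 82 of 212 shared genes (38.7%, 32.1 to 45.6), so these intervals overlapped. Among genes in the 3 upper groups it was at 45 of 92 restricted genes (48.9%, 38.3 to 59.6) and 2215 of 2524 shared genes (87.8%, 86.4 to 89.0). The 2 intervals were apart in the CpG-rich genes only, meaning the 3 upper groups. These groups span a range of the ratio, and genes were not matched on it within them. Over all groups, the upper quartile of the ratio was 0.635 in the restricted genes, and the lower quartile 0.651 in the shared genes. Among all genes in the highest quartile of mRNA level, these 3 groups had the mark at 75.1%, 85.2% and 90.7% of starts. The part of CpG content in the difference between 48.9% and 87.8% was not tested. In NIH3T3 cells the corresponding restricted genes had a peak in 77.8% (CpG-poor, 65.5 to 87.3) and 92.5% (CpG-rich) of cases. The NIH3T3 list marked 115 of the 212 CpG-poor shared genes (54.2%, 47.3 to 61.1) and 95.8% of the CpG-rich shared genes.

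Across the classes, CpG content and H3K27ac at the annotated gene start went together at every mRNA level. The median ratio of observed to expected CpG was 0.175 in the genes at 0, 0.361, 0.637 and 0.752 in the next 3 classes and 0.798 in the highest quartile. In each class the genes with a peak had the higher median, which was 0.827 against 0.570 in the highest quartile and 0.792 against 0.172 at 0 TPM. The genes without a peak include the 150 of the highest quartile with a peak at the start of the highest transcript. Their median ratio at the annotated start was 0.260, against 0.712 in the 422 genes that remained after the division above. How far the choice of start shapes the shares below was not tested. In the 5 groups of the ratio, from the lowest, the share with a peak in the highest quartile was 28.5% (20.9 to 37.0), 43.1%, 75.1%, 85.2% and 90.7% (89.2 to 92.1). At 0 TPM the lowest group had 6 of 2735 genes with a peak (0.219%) and the uppermost 24 of 117 (20.5%, 13.6 to 28.97). In the second quartile the same groups gave 6.94% and 40.5%. Of the 72 genes at 0 TPM with a peak, 53 shared it with the start of another gene above 0 TPM, as described further on. The part of this sharing in the shares at 0 TPM was not tested. The CpG-poorest genes of the highest quartile, at 28.5%, were below the CpG-richest of the second quartile, at 40.5% (37.3 to 43.8).

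The letters TATAAA, the core of the TATA box, were searched on the strand of the gene in the same window. They were present in 8.72% of all genes, in 17.3% of the genes at 0 and in 4.71% of the highest quartile. Within the highest quartile they were found in 144 genes with a peak (4.42%) and 46 without (5.94%). A match is a description of the letters and says nothing of the use of a site.

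The 72 genes at 0 with a peak were examined for other gene starts at the same peak. In 53 of them (73.6%, 61.9 to 83.3) the strongest peak also lay within 1 kb of the start of another gene above 0 TPM, and in 44 that neighbour was above 5.63 TPM. The median level of the neighbours was 15.5 TPM. In the highest quartile, 30.8% (29.2 to 32.4) of genes with a peak shared it in this way. In the lowest quartile 74.5% did. Of the 72 genes, 31 had Gm names and 9 Rik names, kinds that were not counted over all genes at 0. A NIH3T3 H3K27ac peak was at the start of 60 (83.3%), against 254 of all 5753 genes at 0 (4.42%). In NIH3T3 cells 8 of the 72 were at 0.5 TPM or above. Ser5p was at 18 of the 72 (25%), against 4 of the 5681 genes at 0 without H3K27ac (0.0704%).

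Named examples show this arrangement. The peak at Ttc39d had a fold of 10.2 and also lay at Srsf7, a splicing factor at 192 TPM. That at a, the agouti gene of coat colour, had a fold of 10.6 and lay at Raly, at 125 TPM. The start of Hepacam2 shared its peak (fold 9.87) with Vps50 at 36.9 TPM, and that of Tubal3, an alpha-tubulin-like gene, its peak (fold 7.78) with Net1 at 16.6 TPM. Gm37419 (fold 14.3) lay at Bcl6, which was itself at 1.76 TPM, and 4930519P11Rik (fold 9.25) at Zfp341, at 3.01 TPM. Gm10322 shared its peak with Mcu, Gm26558 with Gorasp2, 2010109A12Rik with Ccni, Gm28778 with Ormdl1, Gm10518 with Ahctf1, Gm26566 with Klhl9 and 4930535I16Rik with Rragc, at folds from 8.01 to 10.4 and neighbour levels from 14.9 to 76.2 TPM. Among the 15 genes at 0 of highest fold, only Gm20422, with the highest fold of all genes at 0 (16.3), had no other start within 1 kb of its peak.

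For 18 of the 72 no other gene start lay at the peak, and for 1 the other gene was at 0. Their folds ran from 2.87 (2610042L04Rik) to 16.3 (Gm20422). Hist1h4c, a replication histone H4 gene, had a fold of 7.27 and peaks of Ctr9, NELFA, Ser5p and Ser2p at its start. Exosc6, a subunit of the RNA exosome, had a fold of 5.98 and all 4 other peaks too, so both are listed at 0 TPM at starts with RNAPII. Exosc6 was also at 0 in NIH3T3 cells, where it had an H3K27ac peak. Kng1 and Kng2, genes of the kininogens made in liver, had folds of 3.27 and 3.15, with the summit 763 and 1020.0 bps upstream of the start. These 4 genes were named after their values were seen.

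Of the lowest quartile, the genes of highest fold were Cdiptos (fold 14.0), which shares its peak with Cdipt at 13.9 TPM, Foxp3, the factor of regulatory T cells (12.1), Epo, erythropoietin (11.7), BC049715 (11.6) and Zmat1 (10.9). The peak at Foxp3, at 0.0507 TPM, also lay at Ppp1r3f (0.584 TPM), that at Epo, at 0.0899 TPM, at Gnb2 (55.4 TPM), and that at BC049715 at Wbp11 (74.6 TPM). Zmat1, at 0.276 TPM, had its start alone.

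Starts with a peak of another list were examined for H3K27ac. Of the 1088 genes of the highest quartile with a Ser5p peak, 1023 also had H3K27ac (94.0%, 92.4 to 95.4), as had 966 of 1010 with NELFA (95.6%). Ctr9 differed by class. H3K27ac was at 89.2% of the Ctr9 starts of the highest quartile, at 76.3% in the third and 44.9% in the second. It was at 14.9% in the lowest quartile and at 15.9% at 0 TPM. Among all genes of these classes, in the same order, H3K27ac was at 80.8%, 62.4%, 26.2%, 3.69% and 1.25% of the starts. For Ser5p the share was 80.4% in the second quartile, 80% in the lowest and 81.8% (59.7 to 94.8) at 0 TPM, where 22 genes had a Ser5p peak. For Ser2p it was 85.2% in the highest quartile, 57% in the second, 43.5% in the lowest and 50% (21.1 to 78.9) at 0 TPM, where 12 genes had a Ser2p peak. In the other direction, 31.4% of the genes of the highest quartile with H3K27ac had a Ser5p peak and 3.71% a Ser2p peak, so most starts with H3K27ac had no RNAPII peak in these lists.

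Seen from the peaks, 7968 of the 19417 (41.0%) were at a protein-coding start, with a base within 1 kb, and 11449 away from any. Peaks at starts had a median fold of 4.78 and a median width of 467 bps, against 3.64 and 379 bps elsewhere. The highest gene at the peak was in the highest quartile for 4218 (52.9%) of the start peaks and at 0 TPM for 26 (0.326%). The peaks with only genes at 0 had a median fold of 3.91 and a median width of 327.5 bps, against 5.01 and 519 bps where the highest gene was in the highest quartile.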

How the data were processed

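Lists of ChIP-seq peaks and tables of RNA-seq, from 1 library each, were used as deposited. Alignment by the authors was to mm10 (Bowtie2 2.3.5.1), blacklisted reads were dropped, and MACS2 2.2.6 called peaks (q-value cutoff 0.01). The deposited lists give fold enrichment as a ratio of the summit pileup to the local background, and the −log10 of the q-value. RNA-seq was quantified by the authors with kallisto 0.46.1, and the deposited tables give an estimated count and a TPM for each transcript, with TPM summing to 1000000.

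Gene starts were taken from GENCODE on GRCm38, in coordinates counted from 1, as the outermost 5′ end of the gene. A gene took the TPM of its highest transcript and its strongest peak with any base within 1 kb. Shares carry exact Clopper-Pearson intervals and medians intervals from binomial order statistics, both at 95%, and medians, shares and rank correlations were the only statistics. The RefSeq promoter table matched 65.2% of the genes, so CpG and TATAAA were read from the GRCm38.p6 genome at every start, a change made after seeing the data. At all 5590 starts where table and annotation coincide the bases were the same. The code was tested on simulated data and passed 6 of 6 checks. Python 3.11.15, NumPy, SciPy and pandas were used.

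Genes named are the 15 of highest TPM without a peak and the 10 of highest fold and 5 widest peaks in the highest quartile, the 15 of highest fold at 0 TPM, the 5 of highest fold in the lowest quartile, the pluripotency genes, and 2 to 4 genes of highest TPM of other lists. Outside this rule, Hist1h4c, Exosc6, Kng1, Kng2, the ribosomal protein genes without a peak and the genes at class limits were picked with their values in view. The members and lists were chosen with earlier results of these data known. Input libraries, and Ctr9 in NIH3T3 cells, were not used here. Some results of these lists are not reported here.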

Additional observations from a re-analysis of the deposited data

Results flagged for a closer look

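The comparisons were made on protein-coding genes, and 3 signals appeared in data outside them. Among 8379 genes of long noncoding or antisense RNA, 7162 had no protein-coding start within 2 kb, and 288 of these had an H3K27ac peak within 1 kb of their own start (4.02%, 3.58 to 4.50). Of the 41 such genes above the limit of the highest quartile of protein-coding genes, 21 had a peak (51.2%, 35.1 to 67.1). Examples are Lncenc1 (138 TPM, fold 3.61), Platr13 (72.9 TPM, fold 4.86), Platr10 (63.5 TPM, fold 2.74) and Snhg6 (51.7 TPM, fold 8.76). Lncenc1 and the Platr genes are known as transcripts of mESCs, and Snhg6 as a host gene of small nucleolar RNA. With a protein-coding start within 2 kb, 486 of 1217 noncoding genes had a peak (39.9%, 37.2 to 42.7). The third signal is 110 H3K27ac peaks outside the assembled chromosomes, which have no place among the gene starts. No input library was compared, so background at these peaks was not tested.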

How the results depend on the processing

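No paired analysis was possible because each group has 1 library, and no replicate could be left out. Of 66 alternative values, 51 stayed within the interval of the main value or, for counts, within 1.5 times of it, and 15 moved. A window of 5 kb gave shares of 85.7% in the highest quartile and 2.59% at 0 TPM (149 genes), 88.2% in genes high in both cell types and 61.0% in mESC-restricted genes. With starts from the highest transcript, the highest quartile was at 78.1% and the genes high in both at 81.8%. Classes from protein_coding transcripts only gave 1.60% at 0 TPM. Leaving out genes with another start within 2 kb gave 77.3% in the highest quartile, with a median fold of 5.83 and a median width of 587.5 bps, and 0.355% at 0 TPM (18 genes), with a median fold of 3.85 and a median width of 284.5 bps. Under this setting the ratio of median folds was 1.51, against 1.17. The cause of these moves was not tested, other than that wider windows and fewer genes change the counts by construction. The share of the highest quartile was 77.0 to 83.2 percentage points above that of the genes at 0 in the 7 alternatives set for it. The gap between genes high in both and mESC-restricted genes, a result with alternatives chosen after seeing the data, ran from 27.2 to 40.4 points. Depth limits absence: the reads behind a list are unknown, so a gene without a peak may carry the mark below the threshold of the caller.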
